A study of Homo sapiens with 6 samples.

Results

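Of 42547 RNA polymerase I (Pol I) peaks listed for LNCaP cells given the solvent DMSO, 1010 (2.37%) lay under a peak of RNA polymerase II (Pol II) listed after the Pol I inhibitor BMH-21 and under no Pol II peak listed from DMSO cells. Listed DMSO and BMH-21 Pol II peaks share no position, nor do the listed Pol I peaks of the treatments, and each list skips running numbers, so an unlisted peak is not shown to be absent. They were chosen by the positions of listed peaks on hg19, with a minimum overlap of 1 bp, so the overlap itself is a description and not a finding. The rule drew on the DMSO Pol I, DMSO Pol II and BMH-21 Pol II lists, and the BMH-21 Pol I list was not used by it. Before the DMSO Pol II peaks were set aside, 1036 DMSO Pol I peaks (2.43%) touched a BMH-21 Pol II peak, of which 26 also touched a DMSO Pol II peak. The other DMSO Pol I peaks were 5922 under DMSO Pol II only (13.9%) and 35589 under no listed Pol II peak (83.6%).

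LNCaP is an androgen-responsive line derived from a human prostate cancer. The cells received DMSO, or BMH-21 at 1 µM, and both arms were described as a 6 h treatment. Chromatin was immunoprecipitated with the C-1 antibody, which the sample titles assign to Pol I, or with antibody 4H8, described as directed to the Pol II C-terminal repeat phosphorylated at serine 5. Each antibody and treatment had 1 library, and 2 input libraries of the 6 samples were not analysed here, so replicate error could not be measured and no p-value is given. The intervals given are exact Clopper-Pearson 95% intervals for counting error over peaks only, and read depth is unknown because the lists hold peaks and no reads. They treat each peak as independent, although some peaks lie close together.

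Pol I transcribes the ribosomal RNA precursor from the ribosomal DNA repeats in the nucleolus, and BMH-21 is a DNA intercalator that inhibits it and leads to degradation of its largest subunit. Pol II transcribes protein-coding genes, and serine 5 phosphorylation of its C-terminal repeats is known to mark polymerase near gene starts and in early transcription. The hg19 build leaves out most of the ribosomal DNA repeats, and the peaks described here are on the assembled chromosomes. Whether such a Pol I peak reflects Pol I itself or other signal in the immunoprecipitate was not tested.

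The 1010 peaks fell into 2 kinds by the Pol II peak above them. Most of them, 918, lay only under BMH-21 Pol II peaks narrower than 2 kb. The remaining 92 (9.11%, interval 7.41 to 11.05) lay under at least 1 BMH-21 Pol II peak of 2 kb or more, and 30 of these (2.97% of the 1010, interval 2.01 to 4.21) under one of 10 kb or more. In the whole BMH-21 Pol II list, 1.96% of peaks were at least 2 kb wide and 0.156% at least 10 kb wide. A wide peak covers more sequence and so meets more Pol I peaks, which is why these shares are set side by side without a test.

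**Figure D1:**
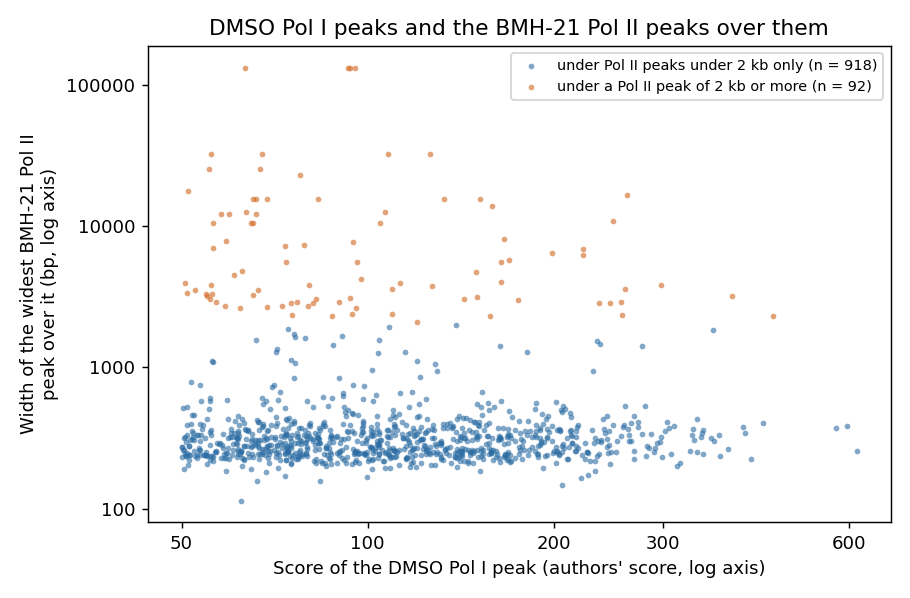
Each point is 1 of the 1010 DMSO Pol I peaks, placed by its own score (x axis, log) and by the width in bp of the widest BMH-21 Pol II peak over it (y axis, log). The 918 blue points form a band at narrow Pol II widths, and the 92 orange points, under Pol II peaks of 2 kb or more, reach 133089 bp.

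In median width and score the selected Pol I peaks lay between those under no Pol II peak and those under DMSO Pol II only. The selected peaks were 204 to 5943 bp wide with a median of 497 bp (quartiles 415 and 598, order-statistic interval of the median 490 to 508). The median was 457 bp (interval 455 to 458) for Pol I peaks under no Pol II peak and 503 bp (interval 497 to 507) for those under DMSO Pol II only. The score is the authors' value per peak, named a p-value in the file header, starting at 50 and of a scale not stated. It ran from 50.01 to 618 in the selected peaks with a median of 103.88 (interval 99.45 to 108.69). The median was 95.26 (interval 94.46 to 96.15) under no Pol II peak and 119.46 (interval 116.63 to 122.26) under DMSO Pol II only. Scores below 100 made up 47.3% of the selected peaks, 53.1% of those under no Pol II and 39.6% of those under DMSO Pol II only. Since wider peaks meet other peaks more readily, the widths are partly a product of the choice.

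Between the kinds, the Pol I peaks under wide Pol II peaks were wider and lower in score. Their median width was 560.5 bp against 495 bp under narrow Pol II peaks. Their median score was 82.80 (order-statistic interval 73.82 to 95.78) against 105.15 (interval 101.47 to 110.59). Of the 92 peaks under wide Pol II, 68 lay in the 11 dense runs described below. They are not independent sites, which the intervals do not allow for. The highest Pol I score under a wide Pol II peak was 451.79.

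The shares of DMSO Pol I peaks under the 2 Pol II lists took different courses over the Pol I score. The rule used both overlaps, so this is a description. The DMSO Pol I peaks were cut by score into 5 bins of like size. The share lying under BMH-21 Pol II was 1.82% in the lowest bin (interval 1.55 to 2.13), 2.54% in the next, 2.53% in the middle bin, 2.81% in the next (interval 2.47 to 3.18) and 2.17% in the highest (interval 1.88 to 2.51). The share under DMSO Pol II only went up at each step, from 9.37% to 11.26%, 13.42%, 15.92% and 19.62%. The share under BMH-21 Pol II was thus highest in the second-highest bin and lower in the top bin, whose scores ran from 181.3 to 1326.79. The intervals of these bins overlap. The classes exclude each other, so a bin with more peaks under DMSO Pol II has fewer left for the other class, and the difference between the courses was not tested.

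**Figure D2:**
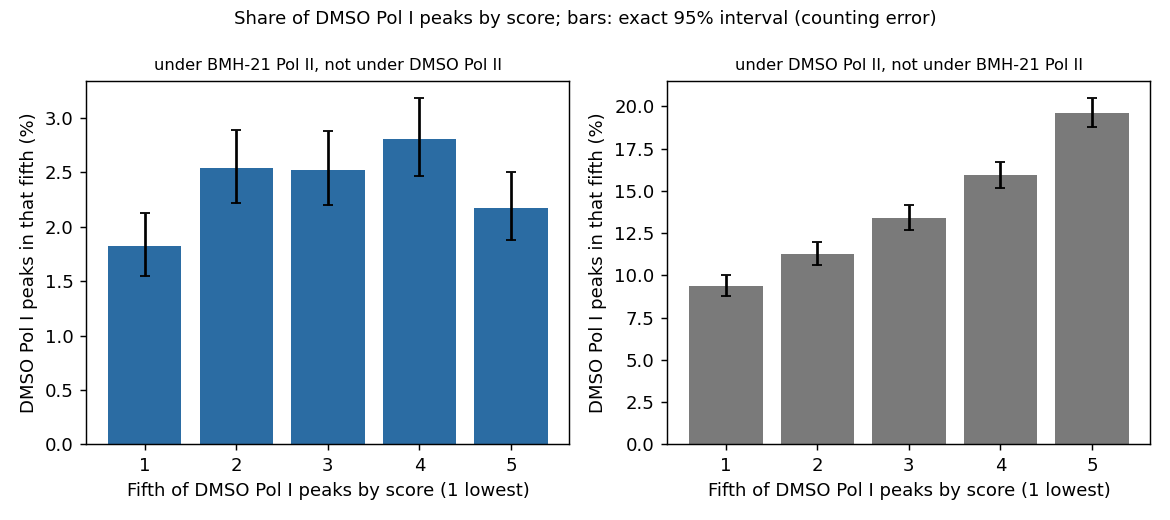
Bars give the percent of DMSO Pol I peaks in each of 5 equal bins of score that lie under BMH-21 Pol II and not DMSO Pol II (left) or under DMSO Pol II and not BMH-21 Pol II (right), with exact 95% intervals for counting error. The left bars stay between 1.82% and 2.81% and the right bars climb from 9.37% to 19.62%; the y axes differ in scale.

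Among the 10 selected peaks with the highest Pol I score, 7 had a Pol II peak of 401 bp or less inside the Pol I peak with its centre at most 35 bp away. The Pol II scores of these 7 ran from 52.05 to 85.49, where the upper quartile of the BMH-21 Pol II list was 76.45. The leading one, chr7:25496213-25497037, had a Pol I score of 618 and a width of 825 bp. Its BMH-21 Pol II peak was 255 bp wide with a score of 58.34, lay wholly within the Pol I peak, and its centre was 9 bp from the Pol I centre. At chr8:124991910-124992723 (Pol I score 595.13), the Pol II peak was 387 bp wide with a score of 85.49 and its centre was 4.5 bp away. At chr1:206759959-206760616 (Pol I score 572.1), the Pol II peak was 374 bp wide with a score of 64.47 and its centre was 35 bp away. In these 3 regions the Pol I peak was the wider one on each side, and the nearest listed DMSO Pol II peak was 122, 445 and 45.7 kb away.

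The same arrangement was found at chr16:13590719-13591444 (Pol I score 435.93, Pol II score 52.05), chr1:158242308-158243077 (416.98 and 52.05), chr1:116996047-116996582 (408.38 and 55.85) and chr13:52948476-52949039 (404.29 and 52.87). In these 4 regions the centres were 19.5, 7, 29 and 21 bp apart, and the Pol II scores were near the listing limit of 50. At chr1:246780558-246781520 (Pol I score 382.1), the Pol II peak of 265 bp was inside the Pol I peak but 263 bp off its centre. The other 2 of the 10 were under wide Pol II peaks, at chr18:56029726-56030904 (Pol I score 451.79, Pol II width 2299 bp and score 970.82) and chr11:34642085-34643009 (Pol I score 389, Pol II width 3196 bp and score 1935.13). A Pol II peak wholly inside the Pol I peak was common beyond these 10. It was found in 57.2% of all 1010 and in 62.85% of the 918 under narrow Pol II, so the arrangement is not particular to the highest scores.

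The centres of narrow Pol II peaks and Pol I peaks lay close together, which the overlap rule partly fixes, since peaks this short must have near centres to overlap. No value expected from overlap alone was computed. There were 946 pairs of a selected Pol I peak and a BMH-21 Pol II peak under 2 kb, and the centres of a pair were a median of 63 bp apart (quartiles 28 and 128.5). They were at most 100 bp apart in 67.0% of pairs. Pairs of a DMSO Pol I peak with a DMSO Pol II peak under 2 kb (5941 pairs) had a median of 65.5 bp, with 64.7% within 100 bp. What set the BMH-21 pairs apart was size. The BMH-21 Pol II peak lay wholly inside the Pol I peak in 61.6% of pairs, against 23.7% of the DMSO pairs, and its median width was 297 bp, against 514 bp for the DMSO Pol II peaks. A Pol I peak in these pairs had a median of 56.3% of its length covered, against 86.5% in the DMSO pairs. BMH-21 Pol II peaks are narrower in the whole list too (median 269 bp against 498 bp), so the difference is not particular to these sites.

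**Figure D3:**
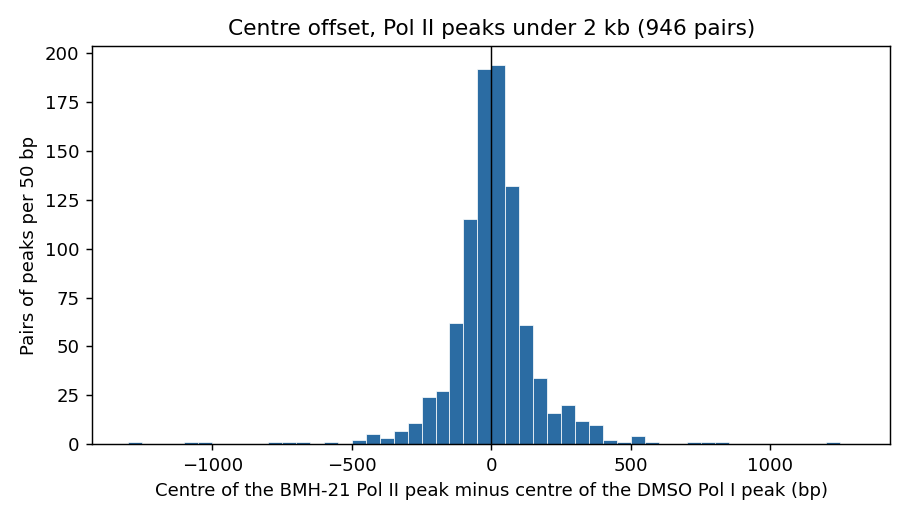
Bars count the 946 pairs of a selected DMSO Pol I peak and a BMH-21 Pol II peak under 2 kb by the distance in bp from the Pol I centre to the Pol II centre, per 50 bp. The counts pile up around 0, with a median absolute distance of 63 bp.

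The BMH-21 Pol II peaks over the selected Pol I peaks numbered 1014 of the 11540 listed. Under 2 kb, the 944 with a selected Pol I peak had a median width of 297 bp and a median score of 63.17, and the 10370 without one had 264 bp and 59.76. At 2 kb or more, the 70 with a selected Pol I peak had a median width of 3837.5 bp and a median score of 1494.32, and the 156 without one had 2764.5 bp and 816.99. By width, the share with a selected Pol I peak was 5.52% under 250 bp, 9.14% from 250 to 299 bp and 12.15% from 300 to 499 bp. It was lower, 7.08% (interval 5.45 to 9.03), from 500 to 999 bp, and 8.87% from 1000 to 1999 bp. It then stood at 26.9% (interval 21.02 to 33.5) from 2000 to 9999 bp and at 77.8% (interval 52.4 to 93.6, 14 of 18 peaks) at 10000 bp or more. The share therefore did not simply grow with width, although a longer peak offers more room. Per length, the selected Pol I peaks numbered from 246 to 337 per Mb of Pol II peak in the 3 classes under 500 bp, where overlaps at the edges weigh most. They numbered 109 from 500 bp, 64.7 from 1000 bp, 88.1 from 2000 bp and 73.9 from 10000 bp, and the DMSO Pol I list as a whole had 14.2 peaks per Mb of the genome it spanned. The measures are unlike, since the values per Mb of Pol II peak count every pair that touches by 1 bp or more. Their ratio to 14.2 is therefore not an enrichment. These shares rest on the overlap that chose the peaks and were not tested.

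Nearly all pairings were single. Of the selected Pol I peaks, 979 met 1 BMH-21 Pol II peak and 31 met 2. Of the BMH-21 Pol II peaks, 996 held 1 selected Pol I peak, 12 held 2, 3 held 3 and 3 held 4. The latter 3 were chr11:34645457-34656073 (10.6 kb, score 3100), chr5:107625397-107657894 (32.5 kb, score 2225.08) and chr21:17783740-17916828 (133 kb, score 164.12). Their 4 Pol I peaks each had scores from 56.11 to 104.77, from 55.85 to 126 and from 63.26 to 95.27. The next, with 3 Pol I peaks each, were chr1:84626143-84641750 and chr14:30354993-30370529, each with a score of 3100. That score was the highest over any selected peak and the median of the 18 BMH-21 Pol II peaks of 10000 bp or more. Several peaks thus tie at it, and width sets their order. By Pol II score and then width, the 5 leading selected Pol I peaks lay under the last pair of Pol II peaks. Their Pol I scores ran from 65.19 at chr14:30360162-30360814 up to 152.17 at chr1:84639832-84640663.

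Along the genome, most of the selected peaks stood alone and a few formed dense runs. When peaks no more than 50 kb apart were joined, they made 880 runs, of which 829 were a single peak and 37 had 2 or 3. The 11 runs of 5 or more held 91 peaks (9.01%) over 0.9 Mb, and 68 of the 92 peaks under wide Pol II were in them. Within these 11 runs, 91 of the 91 listed DMSO Pol I peaks lay under BMH-21 Pol II, while BMH-21 Pol II peaks covered between 56.7% and 99.5% of the run, and 0 DMSO Pol II peaks were listed there. The run ends are themselves selected peaks, so these counts depend partly on how the runs were drawn, and where BMH-21 Pol II is listed DMSO Pol II is not.

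No hg19 annotation was at hand, so the gene names that follow come from general knowledge of where these genes lie on hg19. The only check made was that the 13 symbols used are on the stated chromosome in the RefSeq gene table of GRCh38. Exons, introns and gene starts were not assigned. The 6 runs with most peaks, which include a tie at 9, are described first.

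The run with most peaks was at chr5:107568667-107657683, in the region of FBXL17, which encodes an F-box protein that gives a ubiquitin ligase its substrate. It held 12 Pol I peaks over 89 kb, with Pol I scores from 53.5 to 256.43 and a median of 75.84. Pol II after BMH-21 covered 92.1% of it with 39 peaks, and 10 of the 12 Pol I peaks were under Pol II peaks of 2 kb or more. The DMSO Pol II list had its next peak only 2.08 kb beyond the run, and 1 BMH-21 Pol I peak lay within the run. The widest BMH-21 Pol II peak, 32498 bp, took up the high-coordinate end, and listed DMSO Pol II peaks followed beyond that end.

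At chr18:55853462-56069946, in the region of NEDD4L, a gene for a HECT-type ubiquitin ligase known for acting on sodium channels, 11 Pol I peaks were spread over 216 kb. Their Pol I scores ran from 56.01 to 451.79 with a median of 109.51, the highest maximum of the 11 runs. The 138 BMH-21 Pol II peaks covered 87.5% of the run, and 9 of the Pol I peaks were under wide ones. The nearest listed DMSO Pol II peak was 38.5 kb away.

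The run at chr14:30308810-30397174, in the region of PRKD1, which encodes a diacylglycerol-responsive protein kinase, held 10 Pol I peaks with scores from 55.81 to 298.04. Its strongest Pol I peak was the last one, chr14:30395788-30397174, 1387 bp wide. A shorter run at chr14:30210934-30227477, in the same gene's region, held 5 Pol I peaks with scores from 54.68 to 260.63. BMH-21 Pol II covered 92.7% and 96.7% of these runs.

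In the EHF region, named for an epithelial ETS-family transcription factor, 9 Pol I peaks lay within 45.1 kb at chr11:34642085-34687175. The first of them had a score of 389 and the other 8 ran from 54.99 to 159.03. BMH-21 Pol II covered 99.0% of this run with 8 peaks. A Pol II peak began within that first and strongest Pol I peak, with 756 bp shared. The nearest listed DMSO Pol II peak was 7.36 kb from the run.

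A second run on chromosome 11, at chr11:113980001-114067586 in the region of the zinc finger transcription factor gene ZBTB16, held 9 Pol I peaks with scores from 58.93 to 249.36. Only 4 of the 9 were under Pol II peaks of 2 kb or more, and the nearest DMSO Pol II peak was 77.6 kb away. At chr4:101939763-102066686, in the region of PPP3CA, the gene for a catalytic subunit of the phosphatase calcineurin, all 9 Pol I peaks were under wide Pol II peaks. These were the weakest Pol I peaks of the 11 runs by maximum, with scores from 51.17 to 97.62, under a Pol II cover of 99.5%. The nearest listed DMSO Pol II peak was 462 kb away, the largest such distance among the 11 runs.

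**Figure D4:**
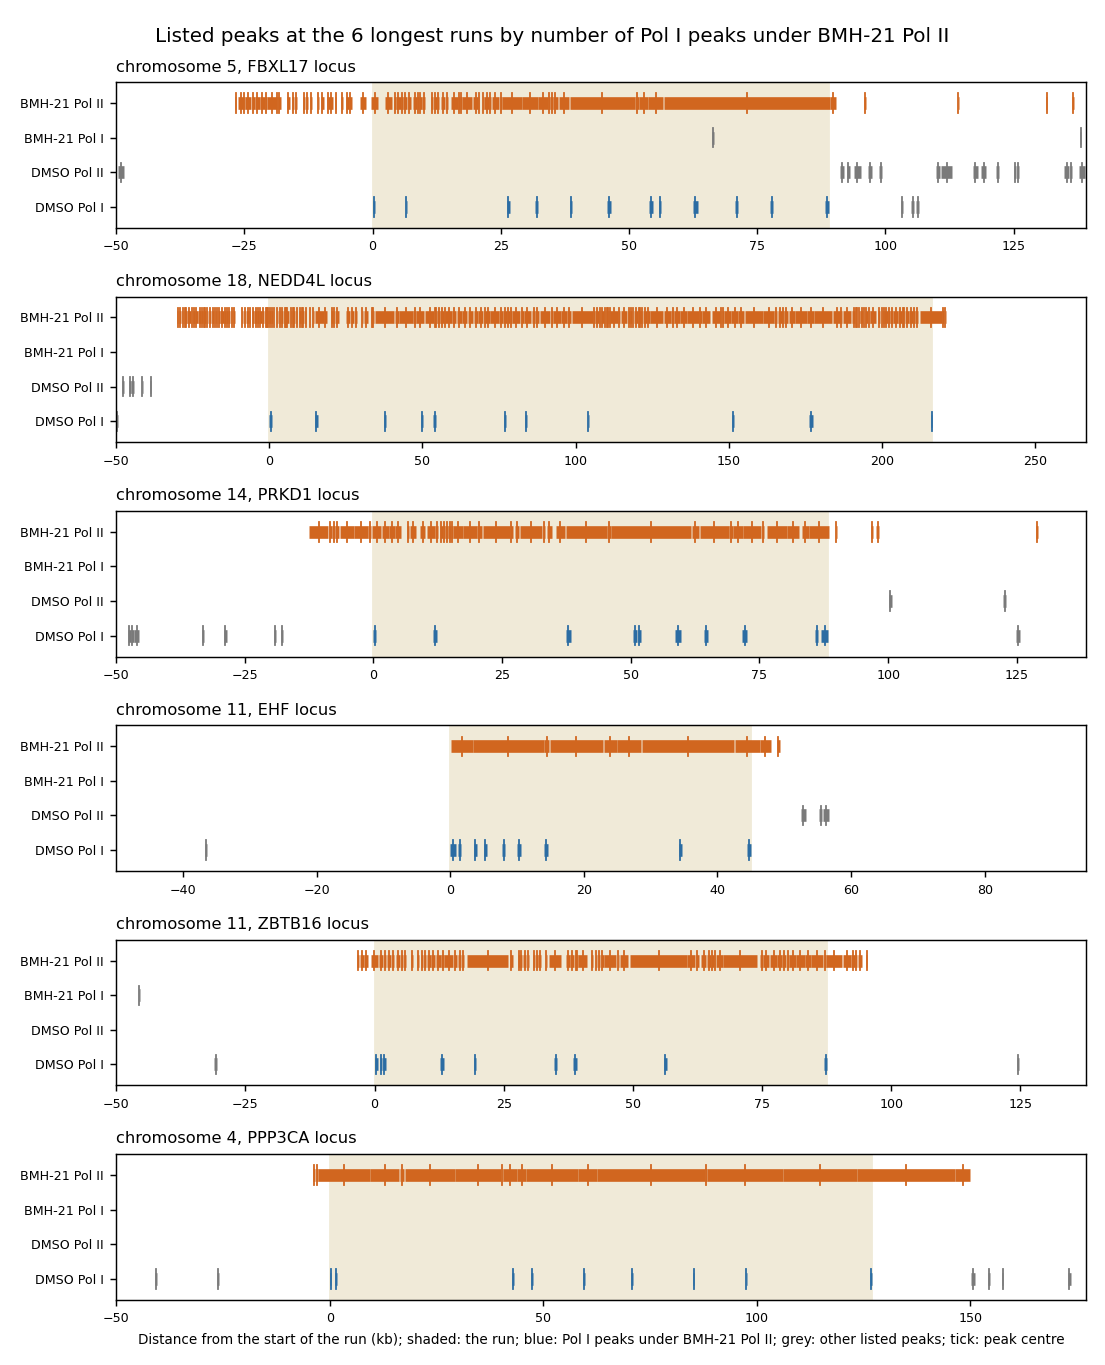
Listed peaks of the 4 libraries are drawn to scale at the 6 runs with most selected Pol I peaks, against distance in kb from the start of the run, with 50 kb on each side. Shading marks the run, blue the selected DMSO Pol I peaks, orange BMH-21 Pol II, grey all other listed peaks, and a thin tick the centre of each peak; no DMSO Pol II peak falls in the shading.

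The other 4 runs of 5 or more and the second PRKD1 run were chosen for mention after their values were seen. The 4 were at chr12:65044435-65074674 in the region of RASSF3, a Ras-association domain gene (7 Pol I peaks, scores from 55.62 to 114.97), and at chr5:54748126-54868283 in and beside PLPP1, a lipid phosphate phosphatase gene (7 peaks, 71.34 to 120.25). They were also at chr1:84625692-84666283 in the region of PRKACB, a catalytic subunit gene of protein kinase A (6 peaks, 65.96 to 223.2), and at chr6:76553184-76592679 in the region of the unconventional myosin gene MYO6 (6 peaks, 74.4 to 234.79). The PLPP1 run had the least Pol II cover, 56.7%, and only 3 of its 7 Pol I peaks were under wide Pol II peaks. The PRKACB run held 3 BMH-21 Pol I peaks, more than any other of the 11. Runs of 4 followed at chrX:44732307-44750005 in the region of the histone demethylase gene KDM6A, at chr12:81889470-81923571 in that of PPFIA2, a liprin gene, and at chr21:17868898-17907330 in that of the noncoding RNA host gene MIR99AHG. On chromosome 21 the whole run lay under the single Pol II peak of 133 kb.

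The BMH-21 Pol I list, which the choice did not use, held only 1932 peaks. Few DMSO Pol I peaks, selected or not, had one of them close by. Within 1 kb of a BMH-21 Pol I peak lay 8 of the 1010 (0.792%, interval 0.343 to 1.56), against 0.578% of all DMSO Pol I peaks. Within 10 kb lay 41 (4.06%, interval 2.93 to 5.47), against 2.45%. These 41 fell in 29 of the runs. Among the 92 under wide Pol II peaks the count was 12 (13.04%, interval 6.93 to 21.7), and among the 918 others 29 (3.16%, interval 2.13 to 4.51). The 12 came from only 4 places, 5 of them in the PRKACB run, 3 in the FBXL17 run, 3 in the MIR99AHG run and 1 at chr4:49330665-49333780, so they are not 12 independent sites. The BMH-21 Pol I list skips 87.7% of its running numbers and shares no position with the DMSO Pol I list. Of 975 selected peaks lying between 2 listed BMH-21 Pol I peaks, only 17 (1.74%) were in a stretch without a skipped number, against 1.32% of all DMSO Pol I peaks, so unlisted BMH-21 Pol I peaks at the rest cannot be told from none.

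The closest of the 8 were chr6:23728539-23729037, 19 bp from a BMH-21 Pol I peak, and chr4:190987981-190989073, 20 bp from one. They were chosen after their values were seen. At the first, the DMSO Pol I score was 99.28 and the Pol II centre was 5 bp from the Pol I centre. The second lies near the end of the long arm of chromosome 4.

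The lack of a listed DMSO Pol II peak at these sites has to be read with the numbering of that list. The deposited DMSO Pol II list skips 48.1% of its running numbers, so a peak numbered there and not listed could have lain over a selected Pol I peak. In 189 of 1004 selected peaks (18.8%, interval 16.5 to 21.4) the listed DMSO Pol II peaks on each side had consecutive numbers, so no skipped number lies between them. Over all DMSO Pol I peaks under no DMSO Pol II peak the share was 14.4%. The other 6 selected peaks lay beyond the first or last listed DMSO Pol II peak of their chromosome. By kind, the share was 20.5% under narrow Pol II peaks (interval 17.9 to 23.3) and 2.17% under wide ones (2 of 92, interval 0.264 to 7.63). The median stretch between the flanking DMSO Pol II peaks was 267 kb for the narrow kind and 361 kb for the wide kind, and a longer stretch has more room for a skipped number. For all but 2 of the 92 peaks in the wide kind, DMSO Pol II at the site was therefore not settled by the lists. The stretches around the 11 runs skipped between 3 and 13 numbers each.

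The distance to the nearest listed DMSO Pol II peak had a median of 50.6 kb (quartiles 14.8 and 127 kb) over the selected peaks and 41.6 kb over Pol I peaks under no Pol II. Within 1 kb lay 4.16% of the selected peaks (interval 3.01 to 5.58), against 4.80% of all Pol I peaks under no DMSO Pol II, and within 10 kb 19.7% (interval 17.3 to 22.3) against 23.4%. Under wide Pol II peaks only 3 of 92 (3.26%, interval 0.678 to 9.24) were within 10 kb. The rule used the DMSO Pol II list, and listed DMSO and BMH-21 Pol II peaks share no position. No DMSO Pol II peak can thus be listed within the BMH-21 Pol II peak over a site, and a wide one keeps it further off. These distances and shares are therefore partly fixed by the choice, and the differences were not tested.

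Neighbouring DMSO Pol I peaks were about as frequent as elsewhere. Another DMSO Pol I peak lay within 10 kb of 44.2% of the selected peaks (interval 41.1 to 47.3), against 42.5% of the list. The kinds differed here, with 76.1% under wide Pol II peaks (interval 66.1 to 84.4) and 41.0% under narrow ones (interval 37.8 to 44.2). The 92 under wide peaks lay in only 23 runs, and 68 of them in the 11 runs of 5 or more. The intervals treat such clustered peaks as independent sites. In 55.2% of the selected peaks (interval 52.0 to 58.3) the DMSO Pol I numbers before and after were both listed, against 59.8% of the list. For each chromosome the longest stretch without a peak of any of the 4 lists was found, and whether it holds the centromere was not checked. Within 1 Mb of it lay 26 of the 1010 (2.57%, interval 1.69 to 3.75), against 1.22% of the DMSO Pol I list. Of these 26, 5 were on chromosome 9.

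By chromosome, the share of DMSO Pol I peaks under BMH-21 Pol II was highest on X, at 3.84% (interval 2.64 to 5.37), and lowest on chromosome 19, at 1.5% (interval 0.891 to 2.36). The median chromosome of 24 stood at 2.31%. Chromosomes 21, Y, 5 and 14 followed X, with 3.68%, 3.49%, 3.36% and 3.13%, and chromosomes 20, 16 and 17 stood next to 19, with 1.56%, 1.72% and 1.75%. The share under DMSO Pol II only was 18.3% on chromosome 19 and 13.6% on X, with its highest value on chromosome 22 (18.9%) and its lowest on Y (5.81%). The order changed when the peaks under Pol II of 2 kb or more were left out, in or outside the runs. Y was then highest at 3.49%, from only 6 of 172 peaks (interval 1.29 to 7.44). Chromosome 12 was lowest at 1.44% (interval 0.974 to 2.05). It stood below chromosome 19, which had no such peak, but the intervals of these chromosomes overlapped. Without the peaks under wide Pol II, X stood at 2.998% (interval 1.95 to 4.39), chromosome 21 at 2.28%, chromosome 14 at 2.24% and chromosome 5 at 2.81%, and the interval of X then met that of chromosome 19. On chromosome 18, 9 of 25 selected peaks were under wide Pol II, and the share went from 2.50% to 1.60% without them. The ratio of listed BMH-21 to DMSO Pol II peaks was 0.918 on chromosome 21, 0.607 on chromosome 5 and 0.465 on X, against 0.311 on 19. It did not follow the share throughout: it was 0.656 on chromosome 18 (share 2.50%) and 0.427 on chromosome 15 (1.78%), but 0.38 on chromosome 13 (2.97%). Its part in the order was not tested.

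**Figure D5:**
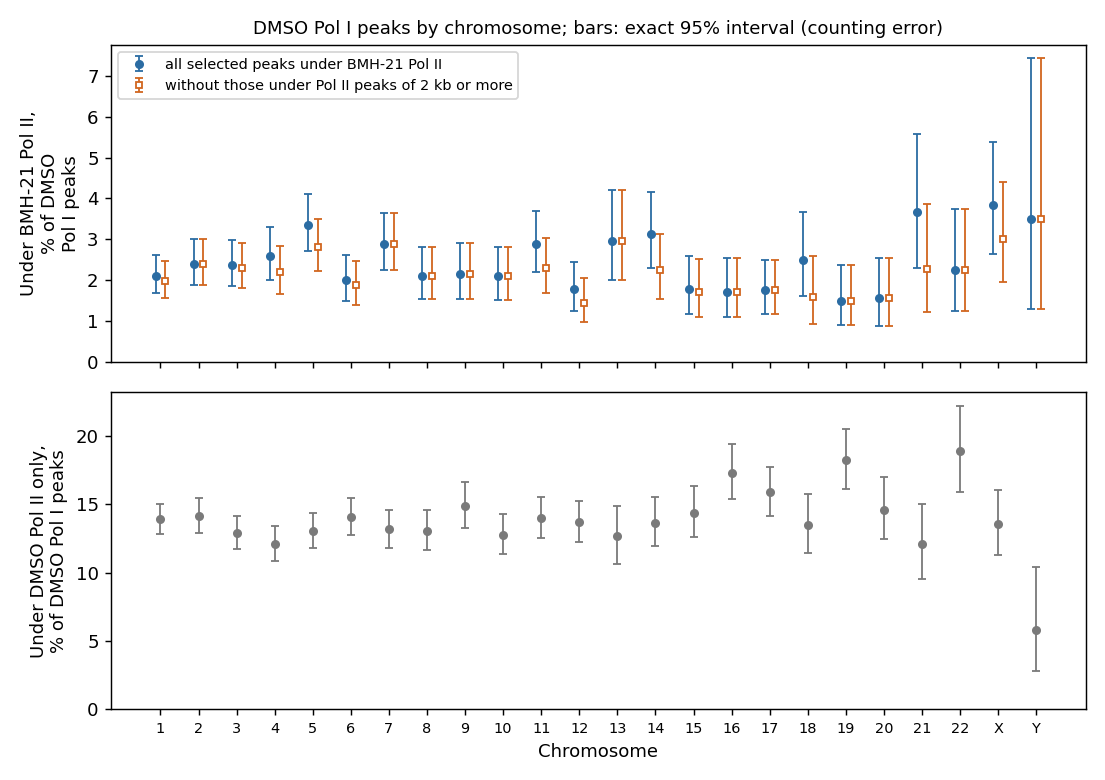
The upper panel gives, per chromosome, the percent of DMSO Pol I peaks under BMH-21 Pol II and not DMSO Pol II, with all 1010 peaks (blue) and without those under Pol II peaks of 2 kb or more (orange squares). The lower panel gives the percent under DMSO Pol II only, bars are exact 95% intervals, and chromosome 19 is lowest above for all 1010 and among the highest below.

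At the edge of the rule, 36 of the selected peaks shared under 100 bp with a Pol II peak by their largest overlap, and 40 Pol I peaks under no Pol II lay within 100 bp of a BMH-21 Pol II peak. The smallest overlaps were 7 bp at chr5:34234140-34234706 (Pol I score 52.46), 11 bp at chr13:50599518-50600040 (106.75), 13 bp at chr10:45360332-45360761 (82.4) and at chr1:235390612-235391154 (112.5), and 14 bp at chr20:33012849-33013224 (101.51). Just outside were chr14:19911993-19912817 (117.12), chr1:235098953-235099388 (59.7) and chr16:73094668-73094959 (50.24), each 4 bp from a BMH-21 Pol II peak, chr1:117905639-117906613 (260.22) at 7 bp and chr3:182812364-182812975 (185.4) at 13 bp. The 5 named inside scored from 52.46 to 112.5, and 3 of the 5 outside scored above that.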

How the data were processed

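There were 4 deposited peak lists, each from 1 ChIP library, giving hg19 positions, running peak numbers and scores. The submitters' processing notes name deepTools 3.5.4, Bowtie2 2.2.1 and CASAVA 1.8.2. Peak names begin with MACS, per the file headers and rows. For the MACS version, inputs and selection of listed peaks, nothing is given in the sources used here. The deposited score is the authors' value, used only within a list, and no peak has a score under 50.

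Starts were taken as zero-based and are printed as the first base in a browser. Overlap meant 1 bp or more, and the count of 1010 was obtained again with bedtools 2.31.1. A skipped number is one absent between the neighbouring listed peaks. Intervals are Clopper-Pearson for shares and binomial order-statistic intervals for medians. With 1 library per group, no p-value was computed. Overlap, distance and numbering functions were tested on simulated data. Python 3.11.15, NumPy 2.4.6, pandas 2.3.3, SciPy 1.17.1 and matplotlib 3.10.9 were used.

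The peaks and lists of interest were chosen with earlier results of these data known. Regions were named by rule: the 10 highest Pol I scores, the 5 under the highest Pol II scores, the 5 Pol II peaks with most Pol I peaks, the 5 runs with most peaks (6 with a tie), and 5 peaks on each side of the overlap rule. Gene positions and preset gene lists were not used, as the gene table was on GRCh38, and no sequence is printed because no hg19 genome was used.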

Additional observations from a re-analysis of the deposited data

How the results depend on the processing

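Of 77 alternative values over 8 results, 58 stayed within the interval of the reported value, or within 1.5 times the count, and 19 did not. The count was 192 with BMH-21 Pol II scores of 100 or more, 547 with Pol I scores at or above the list's median, and 189 where the DMSO Pol II numbering skips no number. Under these 3 settings, in that order, the median Pol I score was 93.92, 151.93 and 110.59, and the share under Pol II peaks of 2 kb or more 47.9%, 6.22% and 1.06%. The share under those of 10 kb or more was 15.6%, 1.65% and 0.529%. The median width became 549 bp under the first and 564 bp under the second. At Pol II scores of 100 or more, BMH-21 Pol I lay within 1 kb of 1.56% (interval 0.323 to 4.50). It lay within 10 kb of 9.38% (interval 5.65 to 14.4), which include the 12 peaks from 4 places under wide Pol II. At this setting the share without a skipped DMSO Pol II number was 7.37%. With neighbours within 1000 bp that share was 15.2%, and the share under Pol II peaks of 2 kb or more 7.11%. Fewer peaks entered the first 3 settings by construction, and a cut on Pol I score raises the median Pol I score by construction. Pol II peaks of 2 kb or more over selected peaks scored at least 140.82. The first setting therefore kept all of them while the count fell. For the other shifts the cause was not tested.

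No paired analysis was possible because each group has 1 library. Whether scores are on 1 scale across lists is not known, skipped peaks cannot be counted, read depth is unknown, and no hg19 annotation was used. Counts at gene starts, in exons and introns and over preset gene lists were therefore not run.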

Other observations

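The 26 DMSO Pol I peaks that met a Pol II peak of each treatment had higher Pol I scores. Their median Pol I score was 164.07 (order-statistic interval 136.22 to 215.35), against 103.88 (interval 99.45 to 108.69) for the 1010 peaks under BMH-21 Pol II alone. The median widths were 631.5 bp (interval 472 to 781) and 497 bp (interval 490 to 508), whose intervals overlap. Listed DMSO and BMH-21 Pol II peaks share no position, so such a Pol I peak has to reach 2 separate Pol II peaks, and wider peaks do so more easily. The highest-scored was chr11:126251737-126253288, 1552 bp wide with a Pol I score of 642.62, above the maximum of 618 among the 1010. Next were chr3:130567859-130569126 (344.04) and chr12:123882894-123883405 (305.6). These 3 regions were chosen after their values were seen.

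The 3 widest of the 1010 Pol I peaks were all on chromosome 4, also chosen after their values were seen. One was near the start of the chromosome, at chr4:51578-57520, 5943 bp wide with a Pol I score of 103.94. The others, chr4:49330665-49333780 and chr4:49323125-49326119, were 3116 and 2995 bp wide with scores of 75.3 and 66.06, in the sequence close to the centromere.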
